A study of Mus musculus with 12 samples.

Results

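Genes that govern the passage of a cell from G1 into S phase, 10 in number, were followed in BV2 cells, an immortalized mouse microglial line: the 3 D cyclins Ccnd1, Ccnd2 and Ccnd3, their kinases Cdk4 and Cdk6, the kinase inhibitors Cdkn1b and Cdkn2c, the E cyclins Ccne1 and Ccne2, and the retinoblastoma gene Rb1. They are 10 of the 21834 protein-coding genes in the deposited count table, taken by their gene names, and all 10 had enough counts to be tested. The set was selected with the counts of these same libraries in view, so the levels and fold changes of the 10 genes are a description and support nothing by themselves. The libraries came from 2 stable lines made with lentiviral vectors and puromycin selection, one expressing a control short hairpin RNA (shCtrl) and one a hairpin against Anxa2 (shAnxa2). Each line was sequenced untreated (CTRL) and after OGD/R, a culture model of ischemia and reperfusion in which cells lose oxygen and glucose and then regain both. Each of these 4 groups held 3 libraries. By the labels, deprivation lasted 4 h and reoxygenation 12 h. The paper's methods give a longer reoxygenation for BV2 cells. Each hairpin was thus carried by 1 line, and a property of a line other than its Anxa2 level cannot be told apart from the knockdown.

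D cyclins are made in response to growth signals and bind Cdk4 or Cdk6. The complexes phosphorylate Rb1, which otherwise holds E2F transcription factors in check, and E2F factors switch on Ccne1, Ccne2 and the genes of DNA replication. Cyclin E then acts with Cdk2. Cdkn2c (p18) binds Cdk4 and Cdk6 directly, and Cdkn1b (p27) restrains cyclin E with Cdk2.

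The libraries were grouped by their titles, because a second label, the cell type, follows the treatment and conflicts with the titles. The targeted gene bears on the line names. Anxa2 had 164.5, 174 and 177 CPM (CPM are counts scaled to the TMM-adjusted library size) in shCtrl-CTRL, 251, 295 and 291 CPM in shCtrl-OGDR, 35.0, 44.4 and 41.8 CPM in shAnxa2-CTRL, and 18.2, 20.1 and 20.6 CPM in shAnxa2-OGDR. All 6 shAnxa2 libraries were below all 6 shCtrl libraries. With OGD/R, the log2 fold change of Anxa2 was 0.70 in shCtrl cells and −1.04 in shAnxa2 cells. Both shAnxa2 groups carried the hairpin, and the cause of the opposite signs was not tested. Over all 11626 genes tested, the root mean square difference of group means on the log2 scale was 0.354 between shCtrl-CTRL and shAnxa2-OGDR and 0.397 between shCtrl-OGDR and shAnxa2-CTRL, against 0.545 between the shCtrl groups and 0.442 between the shAnxa2 groups. Bnip3, a gene known to be induced by low oxygen and chosen here after its values were seen, had 59.4 to 76.6 CPM in shCtrl-CTRL, 179 to 244 CPM in shCtrl-OGDR, 171 to 192 CPM in shAnxa2-CTRL and 37.6 to 42.6 CPM in shAnxa2-OGDR. Each group of one line was therefore nearest to the group with the other treatment name in the other line, and whether treatment names were exchanged in one line was not tested. Every OGD/R direction in either line, both comparisons of the lines and the interaction, with its sizes and ranks, follow the titles.

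Total counts were 19521877 to 27288843 per library. The lowest count of any of the 10 genes in a library was 141, for Ccne2 in shCtrl-OGDR. One library, shAnxa2-OGDR replicate 1, stood apart with 66525 counts of Lars2, against at most 2670 in the other 11. All 13 microglial markers examined were present at 1 CPM or more, and their summed level was 1754 to 2191 CPM. Of 5 neuronal and 5 astrocytic markers none reached 1 CPM, and Snap25 and Aqp4 were at 0 in every library. Of 5 oligodendrocyte markers 1 reached 1 CPM, with Mog at 0 throughout. Of 5 endothelial markers 1 did, namely Kdr (singled out after its values were seen), so that the summed level of that list was 168 to 170.0 CPM in shCtrl-CTRL, 61.6 to 68.7 in shCtrl-OGDR, 118 to 124 in shAnxa2-CTRL and 223 to 227 in shAnxa2-OGDR. These sums moved with the groups in the same order as the group means of Ccnd1, and their part in any result was not tested. In bulk RNA, fewer cells in a given cycle phase and less RNA per cell cannot be told apart.

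Ccnd1 (chr7:144483668-144493662, minus strand, mm39 as for all gene positions below), the D cyclin induced most broadly by growth signals, was at 214, 216 and 231 CPM in shCtrl-CTRL and at 95.8, 108 and 109.7 CPM in shCtrl-OGDR. In shAnxa2-CTRL it was at 159.7, 158.5 and 173 CPM, and in shAnxa2-OGDR at 234, 228 and 241 CPM. The libraries with OGD/R lay below those without it in shCtrl cells and above them in shAnxa2 cells, with no overlap in either line. The fitted log2 fold change of OGD/R was −1.07 ± 0.055 (standard error) in shCtrl cells and 0.52 ± 0.054 in shAnxa2 cells. The shCtrl-CTRL and shAnxa2-OGDR libraries overlapped.

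Ccnd2 (chr6:127102125-127129156, minus strand) had the widest range of the 10 genes, with a highest group mean 8.60 times the lowest. Its level was 78.8, 86.8 and 85.3 CPM in shCtrl-CTRL and 29.4, 33.9 and 32.8 CPM in shCtrl-OGDR. In the other line it was 175, 187 and 183 CPM in shAnxa2-CTRL and 269.5, 272.5 and 284.5 CPM in shAnxa2-OGDR. No pair of the 4 groups overlapped, and both shAnxa2 groups were above both shCtrl groups. The log2 difference between the lines (shAnxa2 minus shCtrl) was 1.12 ± 0.053 without OGD/R and 3.11 ± 0.058 after it. OGD/R itself gave −1.39 ± 0.058 in shCtrl cells and 0.60 ± 0.051 in shAnxa2 cells. Ccnd2 thus differed from Ccnd1 in the untreated lines, where the log2 difference of Ccnd1 was −0.43 ± 0.054.

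Ccnd3 (chr17:47815976-47910616, plus strand), the D cyclin best known from blood cells, had the narrowest range of the D cyclins, a highest group mean 1.42 times the lowest. It had 92.1, 94.5 and 103 CPM in shCtrl-CTRL, 81.4, 85.2 and 79.0 CPM in shCtrl-OGDR, 64.8, 64.5 and 74.9 CPM in shAnxa2-CTRL, and 83.3, 79.8 and 90.0 CPM in shAnxa2-OGDR. The libraries of the 2 groups with OGD/R overlapped, and their log2 difference was 0.04 ± 0.062. Without OGD/R the shAnxa2 libraries were all below the shCtrl libraries, at −0.50 ± 0.062. The OGD/R log2 fold changes were −0.24 ± 0.061 in shCtrl cells and 0.31 ± 0.063 in shAnxa2 cells.

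**Figure D1:**
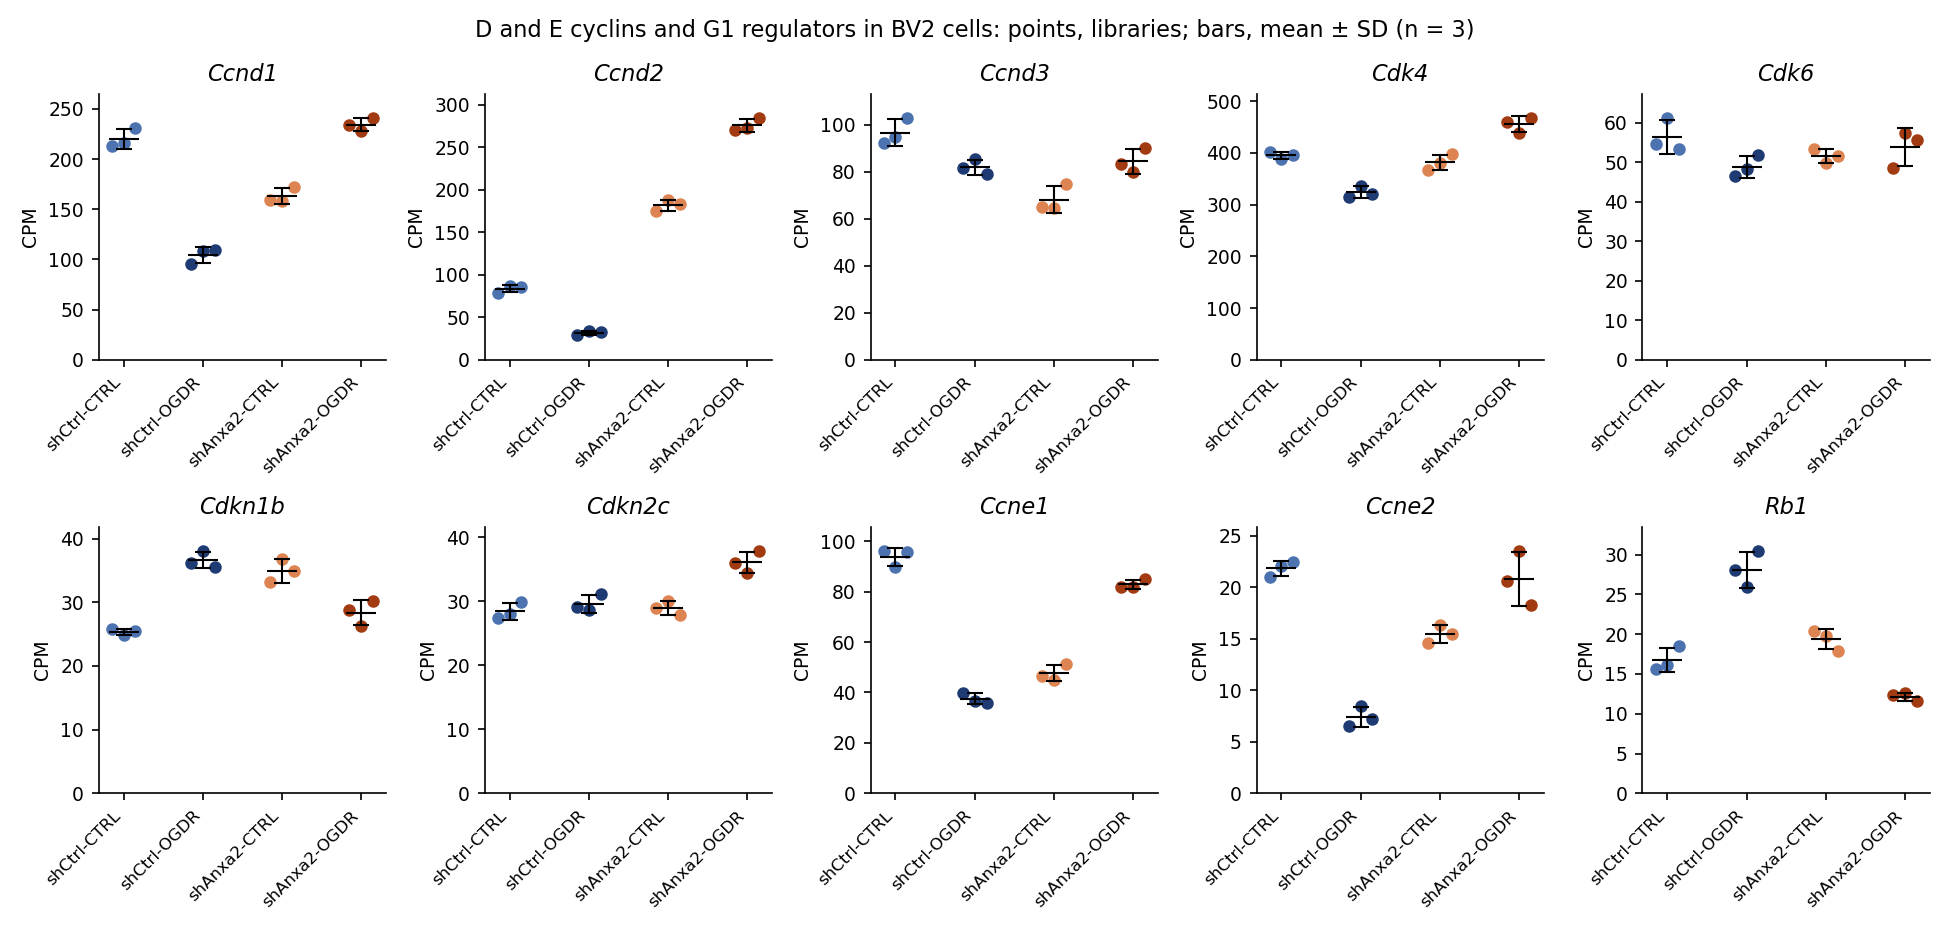
Level of each of the 10 genes in CPM (vertical axis, from 0) in the 4 groups (horizontal axis). Points are libraries and bars the mean ± SD of 3. Ccnd2 separates all 4 groups, while Cdk6 stays between 46.4 and 61.2 CPM.

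Because the 3 genes differ in length, their shares of the D cyclin transcripts were compared per kb of merged exons (lengths from the GENCODE annotation of GRCm38). The summed D cyclin level was 66.6 ± 2.90 CPM per kb in shCtrl-CTRL, 34.9 ± 1.91 in shCtrl-OGDR, 61.8 ± 2.52 in shAnxa2-CTRL and 88.7 ± 2.72 in shAnxa2-OGDR (SD, n = 3). The untreated lines therefore had sums whose ranges met, 64.2 to 69.8 and 59.8 to 64.7 CPM per kb, yet a different makeup. Ccnd2 made up 13.4% ± 0.584 of the sum in shCtrl-CTRL and 9.74% ± 0.195 in shCtrl-OGDR, against 31.3% ± 1.31 in shAnxa2-CTRL and 33.02% ± 0.428 in shAnxa2-OGDR. Ccnd1 was the largest component in every library. Its share was 70.2% ± 0.509 in shCtrl-CTRL, 63.5% ± 1.5 in shCtrl-OGDR, 56.2% ± 0.823 in shAnxa2-CTRL and 56.2% ± 0.371 in shAnxa2-OGDR. Ccnd3 took its largest share, 26.8% ± 1.59, in shCtrl-OGDR, where the other D cyclins were at their lowest. Its shares elsewhere were 16.5% ± 0.248 in shCtrl-CTRL, 12.5% ± 0.589 in shAnxa2-CTRL and 10.8% ± 0.340 in shAnxa2-OGDR. The makeup thus differed more between the lines than between the treatments for Ccnd2, and its ranges in the lines did not overlap. All these shares and sums depend on the length used. Merged exons of Ccnd3 cover 8775 bases and its longest transcript 3858, against 4709 and 3740 for Ccnd1. Shares of Ccnd1 and Ccnd3 by the longest transcript were not computed.

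**Figure D2:**
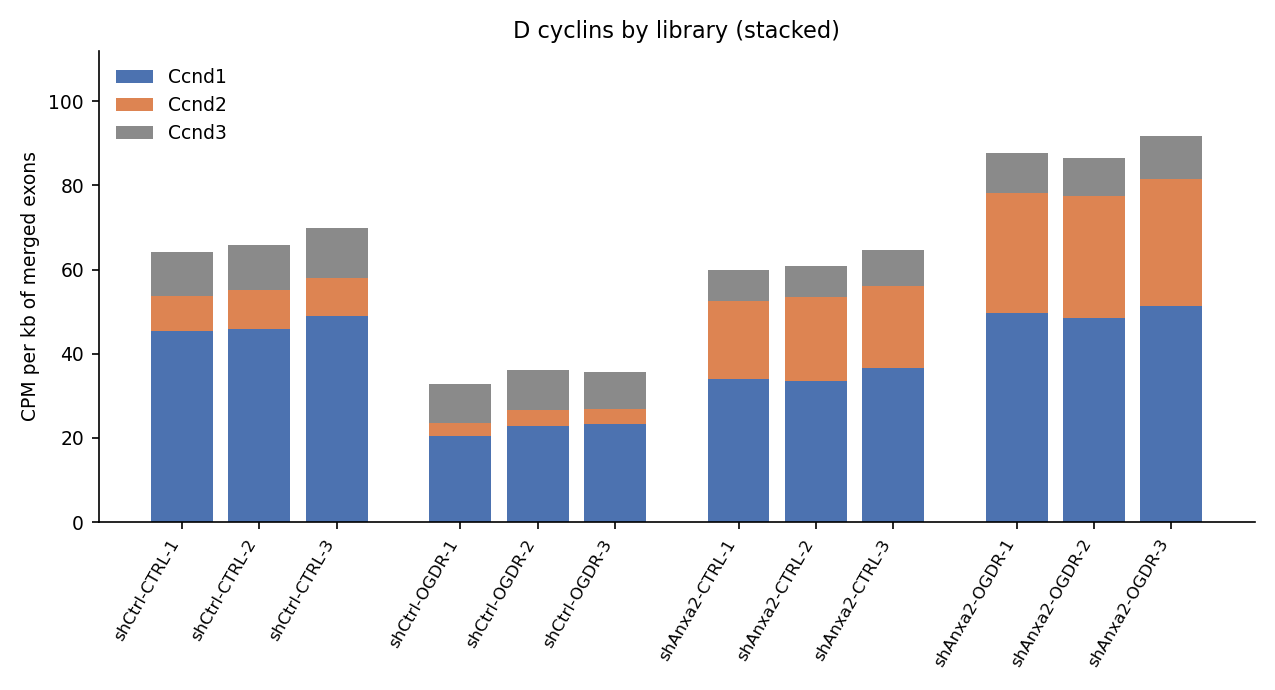
D cyclin level in each of the 12 libraries in CPM per kb of merged exons (vertical axis, from 0), stacked by gene. The sum is lowest in shCtrl-OGDR (32.8 to 36.3) and highest in shAnxa2-OGDR (86.5 to 91.7), and the Ccnd2 part is larger in the shAnxa2 libraries.

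Cdk4 (chr10:126899403-126903789, plus strand), the main partner of the D cyclins by level in these cells, had 402, 388 and 396 CPM in shCtrl-CTRL, 315, 337 and 321 CPM in shCtrl-OGDR, 367, 381 and 397 CPM in shAnxa2-CTRL, and 461, 439 and 468 CPM in shAnxa2-OGDR. The shCtrl-OGDR libraries were the lowest and the shAnxa2-OGDR libraries the highest, while the untreated lines overlapped. The log2 fold change of OGD/R was −0.29 ± 0.047 in shCtrl cells and 0.26 ± 0.047 in shAnxa2 cells. Cdk6 (chr5:3391485-3581008, plus strand) had 54.6, 61.2 and 53.3 CPM in shCtrl-CTRL, 46.4, 48.2 and 51.7 CPM in shCtrl-OGDR, 53.5, 49.9 and 51.5 CPM in shAnxa2-CTRL, and 48.5, 57.4 and 55.6 CPM in shAnxa2-OGDR. Each group of Cdk6 overlapped with its neighbour in the order of levels, although the shCtrl groups did not overlap with each other, and the highest group mean was only 1.16 times the lowest, the smallest ratio of the 10 genes. Its log2 fold change of OGD/R was −0.21 ± 0.068 in shCtrl cells, called at an adjusted p under 0.05 with all libraries but not without shCtrl-CTRL replicate 2 (−0.14) or without shCtrl-OGDR replicate 1 (−0.17), and 0.06 ± 0.068 in shAnxa2 cells. Per kb, Cdk4 was 30.3 ± 2.63 times Cdk6 in shCtrl-CTRL, 28.7 ± 1.75 times in shCtrl-OGDR, 31.9 ± 2.03 times in shAnxa2-CTRL and 36.7 ± 3.99 times in shAnxa2-OGDR (SD, n = 3).

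The start of Cdk4 is shown because its 250 bases upstream, from the RefSeq annotation of GRCm38.p6 (chr10:127063285-127063534, plus strand, 5′ to 3′), hold 4 copies of the E-box CACGTG, a sequence bound by Myc among other factors. They begin at −172, −118, −98 and −11 from the start site and stand in capitals.
Cdk4: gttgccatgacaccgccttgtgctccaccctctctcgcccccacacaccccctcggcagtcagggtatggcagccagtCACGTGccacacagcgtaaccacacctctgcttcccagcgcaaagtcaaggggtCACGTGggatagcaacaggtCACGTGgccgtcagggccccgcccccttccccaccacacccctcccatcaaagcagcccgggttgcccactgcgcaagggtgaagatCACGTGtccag
The E-box, which reads the same on both strands, was found in 7.15% of 32851 RefSeq promoters (250 bases before and 50 after a start site) and in those of 3 of the 6 genes of the set with an entry, Cdk4, Cdk6 and Cdkn2c. Ccnd1, Ccnd2, Ccne2 and Rb1 had no entry, and Ccnd3 and Cdkn2c were entered with alternative start sites. The share is thus per promoter and the count per gene. This is a description of letters and shows no binding.

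Cdkn1b (chr6:134897364-134902476, plus strand) was at 25.8, 24.9 and 25.4 CPM in shCtrl-CTRL and at 36.2, 38.0 and 35.6 CPM in shCtrl-OGDR. In shAnxa2-CTRL it was at 33.2, 36.9 and 34.8 CPM, and in shAnxa2-OGDR at 28.7, 26.2 and 30.2 CPM. The highest mean was in shCtrl-OGDR, the group with the lowest D cyclin sum, and the lowest was in shCtrl-CTRL. The libraries of shAnxa2-CTRL and shCtrl-OGDR overlapped. The log2 fold change of OGD/R was 0.53 ± 0.068 in shCtrl cells and −0.30 ± 0.069 in shAnxa2 cells. The ratio of the D cyclin sum to Cdkn1b, both per kb, was 11.96 ± 0.596 in shCtrl-CTRL, 4.34 ± 0.23 in shCtrl-OGDR, 8.06 ± 0.482 in shAnxa2-CTRL and 14.3 ± 0.662 in shAnxa2-OGDR (SD, n = 3).

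Cdkn2c (chr4:109518073-109524386, minus strand) had 27.4, 28.0 and 29.9 CPM in shCtrl-CTRL, 29.0, 28.5 and 31.1 CPM in shCtrl-OGDR, 29.0, 30.03 and 27.9 CPM in shAnxa2-CTRL, and 35.9, 34.4 and 37.8 CPM in shAnxa2-OGDR. Only the shAnxa2-OGDR libraries stood clear of the other 3 groups, which overlapped. The log2 fold change of OGD/R was 0.06 ± 0.067 in shCtrl cells and 0.31 ± 0.068 in shAnxa2 cells.

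Ccne1 (chr7:37797409-37806959, minus strand) had 96.0, 89.6 and 95.8 CPM in shCtrl-CTRL, 39.9, 36.8 and 36.0 CPM in shCtrl-OGDR, 46.4, 45.1 and 51.2 CPM in shAnxa2-CTRL, and 81.7, 82.0 and 84.9 CPM in shAnxa2-OGDR. No pair of the 4 groups overlapped. OGD/R gave −1.32 ± 0.058 on the log2 scale in shCtrl cells and 0.80 ± 0.058 in shAnxa2 cells. Ccne2 (chr4:11191351-11204779, plus strand), the less abundant E cyclin, had 21.0, 22.0 and 22.5 CPM in shCtrl-CTRL, 6.49, 8.44 and 7.22 CPM in shCtrl-OGDR, 14.6, 16.3 and 15.5 CPM in shAnxa2-CTRL, and 20.6, 23.5 and 18.2 CPM in shAnxa2-OGDR. The 2 groups at the top of Ccne2 overlapped, and the other neighbours did not. Its log2 fold change of OGD/R was −1.56 ± 0.105 in shCtrl cells, the most negative of the set, and 0.43 ± 0.098 in shAnxa2 cells. Per kb, Ccne1 made up 84.9% ± 0.749 of the E cyclin sum in shCtrl-CTRL, 86.9% ± 1.93 in shCtrl-OGDR, 80.1% ± 1.51 in shAnxa2-CTRL and 84.0% ± 1.93 in shAnxa2-OGDR (SD, n = 3). Ccne1 was thus the larger part in every group.

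The 250 bases before the start of Ccne1, shown because none of its groups overlapped, are chr7:38107491-38107740 of GRCm38.p6 on the minus strand, printed 5′ to 3′.
Ccne1: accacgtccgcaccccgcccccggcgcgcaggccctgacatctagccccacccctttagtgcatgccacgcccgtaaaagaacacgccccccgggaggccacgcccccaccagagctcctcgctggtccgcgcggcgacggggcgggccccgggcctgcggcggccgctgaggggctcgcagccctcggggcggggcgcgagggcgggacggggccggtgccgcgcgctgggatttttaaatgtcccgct
Of these bases 76% are G or C, and none of the motifs searched (E2F as TTTCGCGC, TTTGGCGC or TTTCCCGC, AP-1 as TGANTCA, CRE as TGACGTCA, and the E-box, each on both strands) was found in them. The E2F letters were in 1.84% of all promoters and in no promoter of the 6 genes of the set with an entry.

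Rb1, which holds E2F factors in check, had OGD/R changes of the opposite sign to those of the cyclins. The gene lies at chr14:73421113-73563262 on the minus strand and had 15.7, 16.1 and 18.5 CPM in shCtrl-CTRL, 28.0, 25.9 and 30.4 CPM in shCtrl-OGDR, 20.3, 19.8 and 17.9 CPM in shAnxa2-CTRL, and 12.3, 12.6 and 11.6 CPM in shAnxa2-OGDR. The shCtrl-OGDR libraries were the highest and the shAnxa2-OGDR libraries the lowest, and the untreated lines overlapped. The log2 fold change of OGD/R was 0.74 ± 0.085 in shCtrl cells and −0.67 ± 0.093 in shAnxa2 cells. Between the untreated lines it was 0.20 ± 0.088, called with all libraries (adjusted p = 0.0482, edgeR) but not in 5 of 12 leave-outs (shCtrl-CTRL replicates 1 and 2, shAnxa2-CTRL replicates 1 and 2, shAnxa2-OGDR replicate 1), with values from 0.16 to 0.29 and adjusted p from 0.014 to 0.176. Across the 12 libraries the Pearson correlation of log2(CPM + 0.1) was −0.98 between Cdk4 and Rb1, −0.94 between Cdkn1b and Ccne1, and 0.97 between Ccnd1 and Ccne2. These points share their libraries, lines and treatments.

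In shCtrl cells, OGD/R was followed by a called lower level, at adjusted p under 0.05, for 7 of the 10 genes and a higher level for 2. Across all genes tested, 31% were called lower and 32.4% higher. The median log2 fold change of the 10 genes was −0.26, against 0.00452 for all genes. In shAnxa2 cells 7 of the 10 were called higher and 2 lower, against 28.2% and 26.8% of all genes, and the median was 0.31. Cdkn2c in shCtrl cells and Cdk6 in shAnxa2 cells were those not called. Between the untreated lines 3 were called higher and 4 lower in shAnxa2 cells, against 29.5% and 29.7% of all genes, and after OGD/R 6 higher and 2 lower, against 33.8% and 34.2%. Nothing is read from these counts, because the set was chosen on these contrasts. Without shAnxa2-OGDR replicate 1, the library with high Lars2 counts, the calls differed for Rb1 between the untreated lines (0.20, no longer called) and for Cdk6 between the lines after OGD/R (0.22, then called). The ranges of the libraries did not overlap for 9 of 10 genes with OGD/R in the shCtrl line, against 68% of all genes tested, and for 9 in the shAnxa2 line, against 58.9%. They did not overlap for 6 between the untreated lines, against 63.6%, and for 8 between the lines after OGD/R, against 69.9%. Nothing is read from these counts either.

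**Figure D3:**
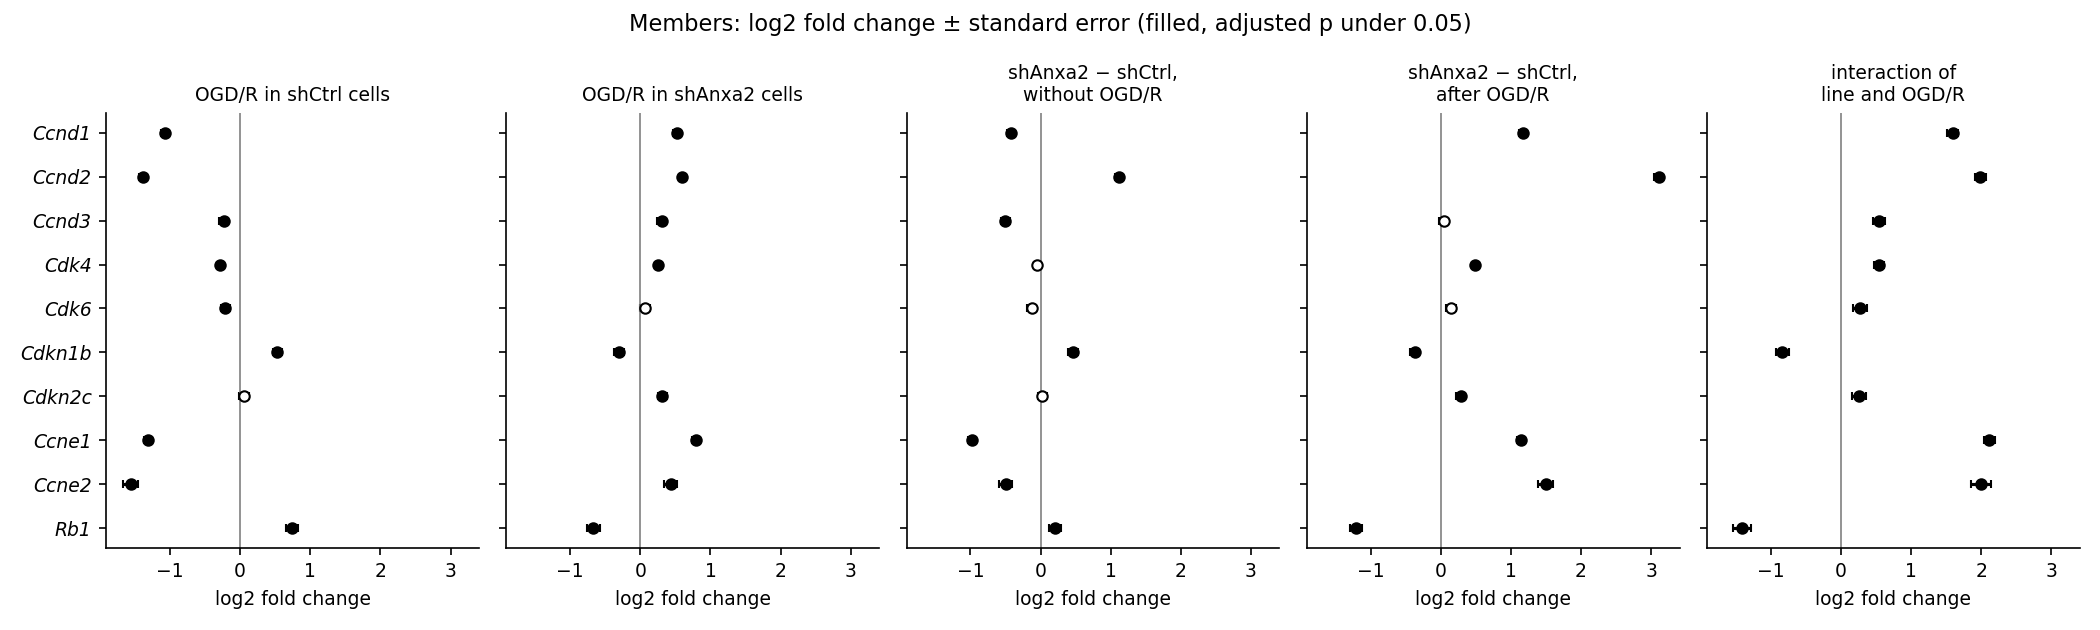
Log2 fold change ± standard error of the 10 genes (vertical axis) in the 4 comparisons and their interaction, from edgeR's fit over 12 libraries. Filled points passed an adjusted p under 0.05. The cyclins and Cdk4 lie left of 0 for OGD/R in shCtrl cells and right of 0 for OGD/R in shAnxa2 cells, and Rb1 and Cdkn1b lie on the opposite sides.

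The interaction of line and OGD/R, the OGD/R change in shAnxa2 cells minus that in shCtrl cells, was called positive for 8 of the 10 genes and negative for 2, against 34.9% and 35.1% of all genes. Ccne1 had 2.12 ± 0.082, Ccne2 1.99 ± 0.144, Ccnd2 1.99 ± 0.077 and Ccnd1 1.59 ± 0.077 on the log2 scale. Cdk4 and Ccnd3 had 0.54 each. Rb1 had −1.41 ± 0.126 and Cdkn1b −0.83 ± 0.097. The smallest, Cdk6 (0.28 ± 0.096) and Cdkn2c (0.26 ± 0.095), lost their call with upper-quartile factors, at 0.20 and 0.19. Over the 10 genes, the root mean square log2 difference was 0.909 between the shCtrl groups, 0.474 between the shAnxa2 groups, 0.563 between the untreated lines and 1.28 between the lines after OGD/R. It was 0.586 between shCtrl-CTRL and shAnxa2-OGDR and 0.914 between shCtrl-OGDR and shAnxa2-CTRL. Over these genes, unlike over all genes, no group was nearest to the group with the other treatment name in the other line. For the shCtrl groups the margins were small, 0.563 against 0.586 for shCtrl-CTRL and 0.909 against 0.914 for shCtrl-OGDR. Ccnd2, which had the widest range of the 10 genes, entered every distance, and distances without it were not computed. Nothing on the treatment names is read from this.

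**Figure D4:**
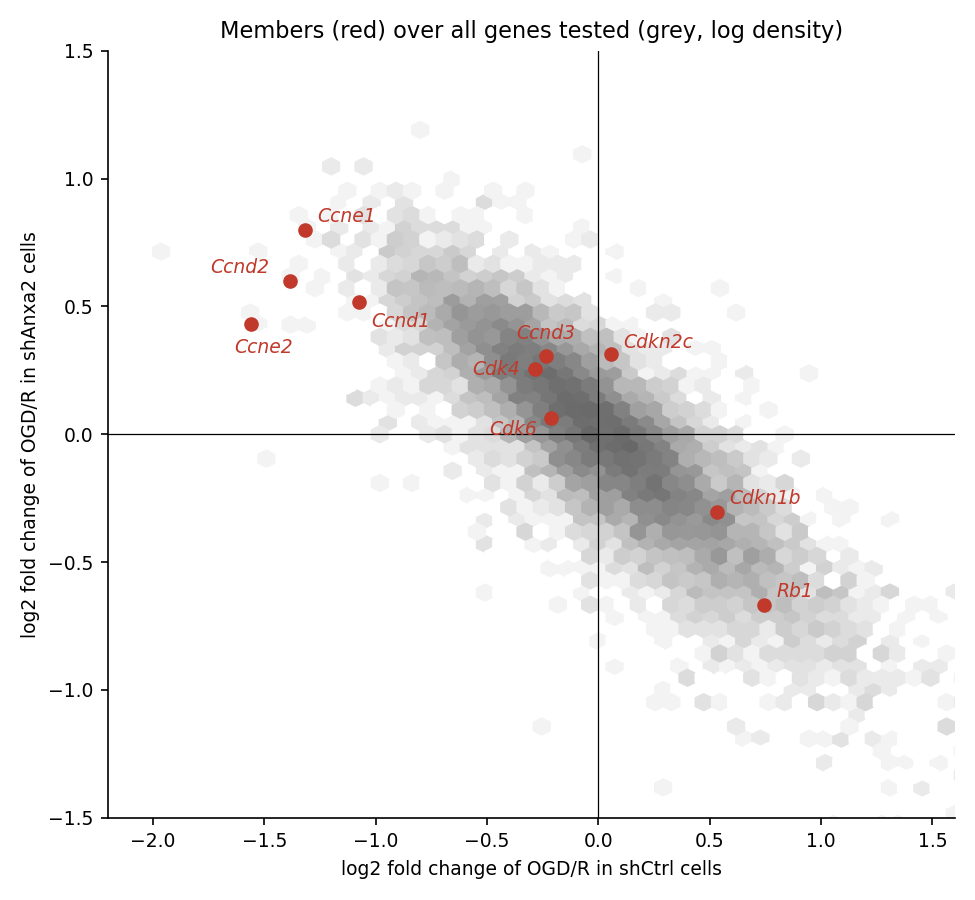
Log2 fold change of OGD/R in shCtrl cells (horizontal axis) and in shAnxa2 cells (vertical axis) for the 10 genes (red) over the genes tested (grey, darker where more genes fall, on a log scale). The 2 axes share no library, and 252 genes beyond the axis limits are not drawn. The cyclins lie at the upper left and Rb1 and Cdkn1b at the lower right.

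The rest of the pathway was followed in 6 lists of 67 genes, of which 63 were tested. The lists were chosen with earlier results of these data known, so their counts are a description. E2f7, Mycn and Fosl1 had too few counts, and Skp1a is an older name of a gene listed as Skp1. In shCtrl cells, 14 of the 63 rose after OGD/R and 36 fell, beside 32.4% and 31% of all genes. In shAnxa2 cells 34 rose and 13 fell, beside 28.2% and 26.8%. The interaction was positive for 37, negative for 15 and not called for 11, where 34.9% of all genes were positive and 35.1% negative. Adjusted p-values below are from the edgeR fit and cover all genes tested. The median interaction of all genes was −0.00612.

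The E2F target genes of S phase, which encode the helicase subunits and enzymes of DNA replication, mostly changed in 1 direction in each line. In shCtrl cells 15 of 16 fell after OGD/R and none rose, beside 31% and 32.4% of all genes. The median log2 fold change of the list was −0.69. In shAnxa2 cells 16 of 16 rose, beside 28.2% of all genes, with a list median of 0.51. The median interaction of the list was 1.19. Cdc6, which loads the replicative helicase onto origins, had 83.0 ± 1.68 CPM in shCtrl-CTRL, 29.4 ± 0.729 in shCtrl-OGDR, 39.1 ± 0.67 in shAnxa2-CTRL and 74.7 ± 4.27 in shAnxa2-OGDR (SD, n = 3). Its interaction was 2.43 ± 0.079 (adjusted p = 6.62e-18, edgeR), the most positive of the list. Tk1, a thymidine kinase, had the least, 0.15 ± 0.072 (adjusted p = 0.0634, edgeR), at 71.6 ± 1.56, 73.2 ± 1.23, 82.7 ± 4.75 and 94.0 ± 2.88 CPM in the same order of groups. Between the lines, 14 of 16 were called lower and 1, Tk1, higher in untreated shAnxa2 cells, beside 29.7% and 29.5% of all genes. After OGD/R 15 of 16 were called higher and none lower, beside 33.8% and 34.2%. The E2F letters stood in the promoters of 8 of the 14 genes of the list with an entry. That count is per gene, beside 1.84% of all promoters. The list was made of E2F targets, so nothing is read from it. Among the 8 is Cdc6, shown as a stretch of 30 bases (chr11:98908002-98908031, GRCm38.p6, plus strand, 5′ to 3′). The letters stand in capitals, on the opposite strand, at −138 from the start site.
Cdc6: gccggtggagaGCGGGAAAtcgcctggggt

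Among the pocket proteins and E2F factors, which hold or drive G1 genes, 8 of 11 fell and 2 rose after OGD/R in shCtrl cells. Of all genes, 31% fell and 32.4% rose there. In shAnxa2 cells 7 of the 11 rose and 2 fell, beside 28.2% and 26.8% of all genes. The median interaction of the list was 0.83. E2f8, a repressive E2F, had 56.3 ± 4.83, 27.4 ± 0.983, 24.9 ± 1.72 and 46.1 ± 1.22 CPM in shCtrl-CTRL, shCtrl-OGDR, shAnxa2-CTRL and shAnxa2-OGDR, and an interaction of 1.93 ± 0.1 (adjusted p = 2.21e-14, edgeR). Rbl2, the Rb1 relative p130 of resting cells, had 24.4 ± 0.954, 41.0 ± 1.28, 34.5 ± 3.24 and 22.7 ± 0.828 CPM, and an interaction of −1.35 ± 0.103 (adjusted p = 2.64e-11, edgeR). Rbl2 rose with OGD/R in the shCtrl line and fell in the shAnxa2 line, as Rb1 did. It was named for the most negative interaction of the list, so the sign it shares with Rb1 was set by that choice. Rbl1, the other pocket protein of the list, had −0.25 with OGD/R in shCtrl cells and 0.02, not called, in shAnxa2 cells. Its interaction was called positive, at 0.26.

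Of CDK2 and its activators, 4 of 6 fell and 1 rose in shCtrl cells, beside 31% and 32.4% of all genes. In shAnxa2 cells 4 rose and 1 fell, beside 28.2% and 26.8%. The median interaction of the list was 0.69. Cdc25a, a phosphatase that activates Cdk2, had 56.0 ± 1.75, 29.7 ± 3.79, 38.3 ± 0.312 and 66.9 ± 3.07 CPM in the 4 groups and an interaction of 1.71 ± 0.098 (adjusted p = 1.49e-13, edgeR). Mnat1, an assembly factor of the Cdk-activating kinase, went the other way, at 18.4 ± 0.838, 30.9 ± 2.90, 30.2 ± 0.369 and 19.9 ± 1.26 CPM and −1.34 ± 0.11 (adjusted p = 9.63e-11, edgeR). Cdc25a and Mnat1 were named for the most positive and most negative interaction of the list, so their opposite signs were set by that choice.

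Of the other CDK inhibitors, 4 of 5 tested had a called negative interaction and none a positive one, beside 35.1% and 34.9% of all genes. The median of the list was −0.95. Cdkn1a (p21) had 22.0 ± 2.08, 23.8 ± 5.53, 37.2 ± 3.86 and 20.7 ± 1.08 CPM, and an interaction of −0.96 ± 0.164 (adjusted p = 1.33e-05, edgeR). In shCtrl cells its log2 fold change of 0.12 was not called, and in shAnxa2 cells it fell by 0.85. Cdkn2b had 2.91 ± 0.619, 3.14 ± 0.254, 3.51 ± 0.216 and 2.74 ± 0.0565 CPM and an interaction of −0.48 ± 0.248 that did not pass (adjusted p = 0.0887, edgeR). Cdkn1c, with the lowest interaction of the list (−1.34), averaged under 1 CPM and rested on 5 to 31 counts per library.

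Of the transcription factors upstream of D cyclins, 5 of 12 rose and 5 fell with OGD/R in the shCtrl line, where 32.4% and 31% of all genes did. In the shAnxa2 line 5 rose and 3 fell, beside 28.2% and 26.8%. These counts were near the shares of all genes. Their median interaction was 0.16. Myc, whose product binds E-boxes and is known as a growth regulator, had 47 to 78 counts per library in shCtrl-CTRL, 183 to 284 in shCtrl-OGDR, 158 to 191 in shAnxa2-CTRL and 47 to 89 in shAnxa2-OGDR. It rose by 1.99 ± 0.152 on the log2 scale in shCtrl cells and fell by 1.42 ± 0.159 in shAnxa2 cells, with an interaction of −3.41 ± 0.22 (adjusted p = 1.2e-12, edgeR). Fos, a component of AP-1, had 318 to 400, 54 to 81, 73 to 96 and 136 to 163 counts in the same groups, and an interaction of 3.16 ± 0.208 (adjusted p = 1.8e-12, edgeR). Fos followed the direction of Ccnd1 in each line and Myc the opposite one. Fos and Myc were named for the most positive and most negative interaction of the list, so that their signs differ was set by that choice.

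Of the ubiquitin ligases of cyclins and inhibitors, 4 of 13 were called positive for the interaction, 4 negative and 5 not called, near the 34.9% and 35.1% of all genes, and the median was −0.10. Skp2, which marks Cdkn1b for destruction, had 69.0 ± 1.39, 49.4 ± 2.39, 48.2 ± 2.08 and 63.2 ± 0.395 CPM and an interaction of 0.87 ± 0.077 (adjusted p = 3.84e-10, edgeR). Fbxw7, which targets cyclin E, had 17.2 ± 0.863, 23.4 ± 0.736, 21.6 ± 0.751 and 14.9 ± 1.097 CPM and −0.97 ± 0.112 (adjusted p = 3.78e-08, edgeR). Skp2 and Fbxw7 were named for the most positive and most negative interaction of the list, so their opposite signs were set by that choice.

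**Figure D5:**
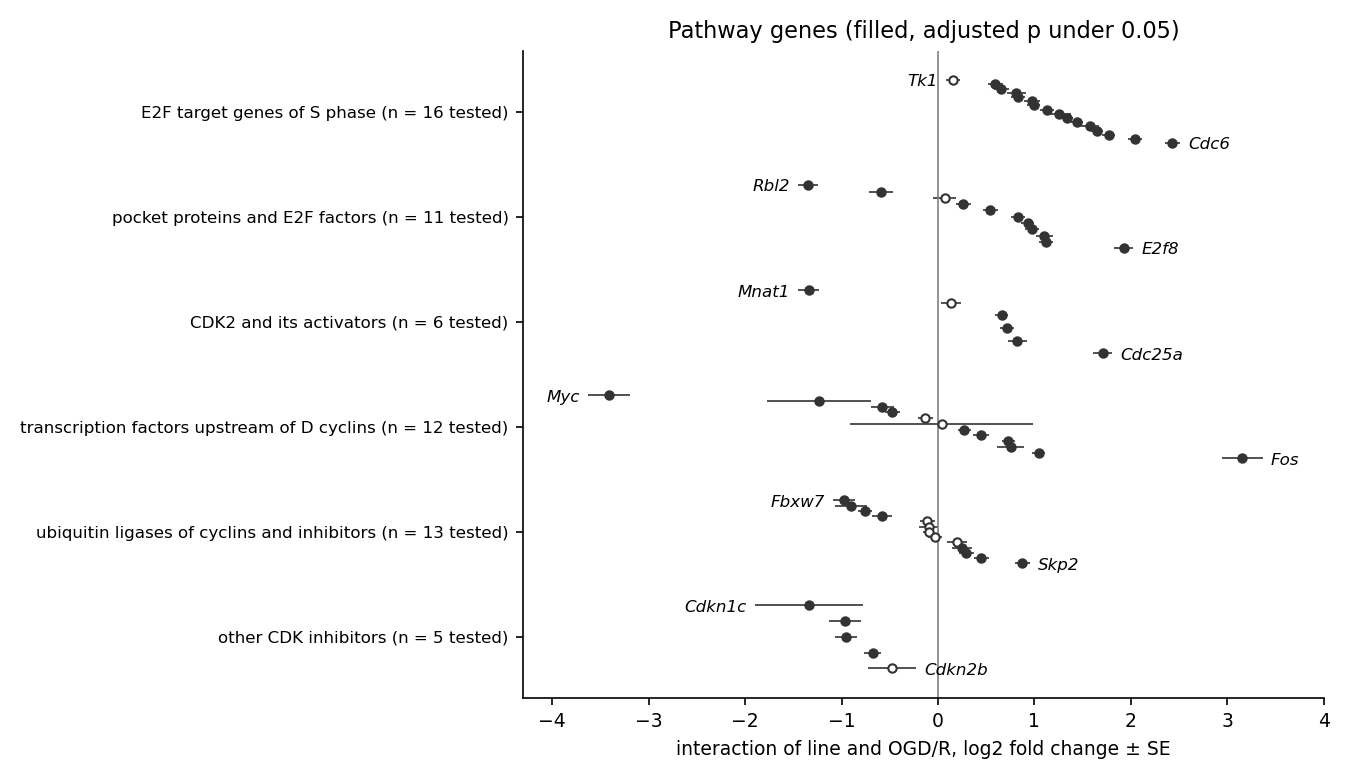
Interaction log2 fold change ± standard error (horizontal axis) of the tested pathway genes, in 6 lists (vertical axis). Filled points passed an adjusted p under 0.05, and the genes with the lowest and highest value of each list are named. In the S-phase list all genes lie right of 0 and Tk1 is the open point, while the CDK inhibitors lie left of 0.

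By the likeness of their levels over the 12 libraries (Pearson correlation of log2(CPM + 0.1), genes of at least 1 CPM on average), the genes most like Ccnd1 were Tubb6 (0.993), Ccdc88c (0.991) and Slc4a2 (0.99), which encode a β-tubulin, a signalling scaffold and an anion exchanger. Nearest to Ccnd2 were Nudt4 (0.99), Tnf (0.99) and Bcr (0.988). Tnf, the cytokine, had means of 47.7, 28.5, 83.6 and 108 CPM in shCtrl-CTRL, shCtrl-OGDR, shAnxa2-CTRL and shAnxa2-OGDR. Nearest to Ccnd3 were Pwwp3a (0.966), Erp29 (0.965) and Tmem109 (0.963). The 3 D cyclins had no near neighbour in common among these. The values are a description over 12 libraries of 4 groups, and they say nothing of shared control.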

How the data were processed

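RNA of 12 BV2 cultures was sequenced from libraries of a kit whose strand setting is not stated. The values used are raw read counts, as deposited by the authors, of 21834 protein-coding genes. Another 12 per-sample columns of scaled values were not. The submitters' processing notes name HISAT2 2.0.4 and mm39, and the counting tool for these cells is not given in the sources used here. Reads of overlapping or antisense genes may not be told apart. Per the paper's methods the replicates of a group are biological. The 11626 genes that reached 0.5 CPM in 3 or more libraries were normalized by TMM and fitted in 1 quasi-likelihood model over 12 libraries with edgeR 4.0.16 (R 4.3.3), and Benjamini-Hochberg adjusted p under 0.05 were called. A standard error is the log2 fold change divided by the square root of F. The biological coefficient of variation was 5.35%. No libraries of a group were duplicates (chi-square per gene 4.00 to 13.3). The members and lists were chosen with earlier results of these data known. Genes named are the 10 members, Anxa2, in each list the tested gene of at least 1 CPM on average with the most positive and the most negative interaction, and the 3 genes most like each D cyclin, predicted genes passed over. Outside this rule, Bnip3, Kdr and Lars2 were named after their values were seen. Cdkn1c was named as the lowest of its list though under 1 CPM, as were markers at 0 in every library. Alternatives were RLE and upper-quartile factors, no filter or 1 CPM, DESeq2 1.42.0, limma voom (limma 3.58.1), only the groups compared, the replicate block, leaving out each library, and a pseudocount of 1 in place of 0.1. Gene lengths by the longest transcript were added after seeing the data. Code was tested on simulated data. Tables and plots used pandas 2.3.3, numpy 2.4.6, matplotlib 3.10.9 and Python 3.11.15. RefSeq sequences of GRCm38.p6 were used only for letters, and the files' mm39 coordinates were not mixed with them.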

Additional observations from a re-analysis of the deposited data

Results flagged for a closer look

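Among the members, Anxa2 and the genes named for the extreme interactions of their lists, 21 had an OGD/R change that differed between the lines. The test was the interaction of edgeR's fit over 12 libraries, at an adjusted p under 0.05. Cdkn2b and Tk1 were not called, and Cdkn1c, under 1 CPM on average, was not among the genes counted. Of all genes, 34.9% were called in the positive and 35.1% in the negative direction. The members were selected with these values known, so their interactions are no independent evidence. The list genes were named for these very values, so nothing is read from the count. Those of the D cyclins were 1.59 for Ccnd1, 1.99 for Ccnd2 and 0.54 for Ccnd3. Cdk4 had 0.54, Cdk6 0.28, Cdkn1b −0.83 and Cdkn2c 0.26. Ccne1 had 2.12, Ccne2 1.99 and Rb1 −1.41. Anxa2 itself had −1.74. Among the pathway genes, the values were −0.96 for Cdkn1a, −1.34 for Mnat1, 1.71 for Cdc25a, −1.35 for Rbl2, 1.93 for E2f8, −0.97 for Fbxw7, 0.87 for Skp2, −3.41 for Myc, 3.16 for Fos and 2.43 for Cdc6. Groups held 3 libraries, too few to look for a single outlying library by its gap.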

How the results depend on the processing

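The counts of members and of pathway genes called kept their size within 1.5 times under every alternative and with each library left out. Of 390 single-gene values under other settings than leaving out a library, 384 kept direction and call, and of 600 with 1 library left out, 583 did. In 2 of these the direction turned, both from values near 0: Cdkn2c between the untreated lines, with a lowest value of −0.001738 without shCtrl-CTRL replicate 1 and a range of −0.001738 to 0.06917 over the 12 leave-outs, and Ccnd3 between the lines after OGD/R, with −0.01607 (without shAnxa2-OGDR replicate 3) to 0.07208. The replicate block, the number of a library taken as a block, moved the value of Rb1 between the untreated lines to 0.21 (adjusted p = 0.0549, edgeR) from an adjusted p of 0.0482, and changed no other call of a member. DESeq2 gave 0.21 (adjusted p = 0.0505) and limma voom 0.20 (adjusted p = 0.0545) for it. Of 18 comparisons of same-numbered libraries, 1 had a correlation of deviations from the group means over 0.1 (−0.05131 to 0.1347). A library correlated best with its own number in 13 of 36 cases. No pairing by number was thus seen, but with 3 libraries per group a weak pairing could be missed. Cdk6 and Cdkn2c lost their interaction call with upper-quartile factors (0.20 and 0.19) and each in 3 leave-outs (Cdk6 without shCtrl-CTRL replicate 2, shCtrl-OGDR replicate 1 or shAnxa2-OGDR replicate 2, Cdkn2c without shCtrl-CTRL replicate 3, shCtrl-OGDR replicate 1 or shAnxa2-OGDR replicate 3), and over all leave-outs they ranged from 0.20 to 0.34 and from 0.21 to 0.29. Cdkn2c lost it also without a filter (0.23). The cause was not tested. The log2 fold change of Cdk6 between the lines after OGD/R was called without shCtrl-OGDR replicate 3 (0.19) or shAnxa2-OGDR replicate 1 (0.22). The neighbours of the D cyclins were the same genes, 3 of 3, with a pseudocount of 1 and with RLE. With lengths of the longest transcript, an alternative chosen after seeing the data, the share of Ccnd2 was 9.323% in shCtrl-OGDR and 33.98% in shAnxa2-OGDR. How far the shares of Ccnd1 and Ccnd3, the sums and the ratios per kb move with that length was not tested. The lowest count of a member was 141, for Ccne2 in shCtrl-OGDR.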
